A study of Drosophila melanogaster with 12 samples.

Results

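Input mRNA from ovaries with germline Nop60B RNAi was compared with input mRNA of the young control ovaries (YWT, the germarial control). The comparison used 4 libraries of the 12 in the polysome sequencing experiment, chosen by their labels alone. These were 2 Nop60B RNAi input libraries and 2 germarial control input libraries, each replicate being a pool of ovaries from many females. The input is the share of each ovary lysate that was set aside before the sucrose gradient, so it measures mRNA level in the whole ovary and not ribosome association. The control flies carried UAS-Dcr2;nosGAL4, a driver in which nanos sequences direct GAL4 to germ cells and UAS-Dcr2 supplies Dicer-2. In the depleted ovaries Nop60B RNAi was expressed in the germline. The labels give the condition "Nop60B RNAi" without the full genotype, so whether both groups carried UAS-Dcr2 is not given in the sources used here. Females of both groups were dissected shortly after eclosion, when control ovaries hold germaria and young egg chambers, and more ovary pairs were pooled for the depletion than for the control. Both groups contain the somatic cells of the ovary, in which the driver is not expressed.

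Nop60B is the pseudouridine synthase of the H/ACA snoRNP, which also contains Gar1, NHP2 and Nop10 and is guided by box H/ACA snoRNAs to uridines of ribosomal RNA. In the Drosophila germarium, a germline stem cell divides to give a cystoblast, whose synchronous divisions form a cyst of interconnected cells. One cell of the cyst becomes the oocyte, the others become nurse cells that fill it with maternal mRNA, and escort and follicle cells of the soma surround the cysts as they move toward the first egg chamber.

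Counts per library were 8902787 and 8505612 in the control and 13364747 and 13360006 in Nop60B RNAi, over 17023 genes. On the log scale of library-scaled counts (CPM), the 2 control replicates had a Pearson correlation across genes of 0.982, the 2 RNAi replicates 0.974, and pairs across groups 0.788 to 0.798. Among 6874 genes of at least 10 CPM on average, 59 were 2-fold apart between control replicates and 56 between RNAi replicates. Levels below are CPM after TMM scaling, given for replicates 1 and 2 in that order. Fold changes are log2 values of Nop60B RNAi over control. The standard errors beside them were derived from edgeR's F statistic, as the absolute log2 fold change divided by the square root of F. Germline and somatic ovary genes described below, among them piwi, tud, tj and fax, were present in all 4 libraries. In whole ovaries, fewer cells of a type and less RNA per cell cannot be told apart.

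The targeted mRNA was lower in both depleted libraries. Nop60B (FBgn0259937, chromosome 2R of dm6, 24174877 to 24186343) was at 1472 and 1677 CPM in the control and at 426 and 439 CPM in Nop60B RNAi, so the groups did not overlap. The log2 fold change was -1.86 (standard error 0.19, edgeR adjusted p = 1.49e-06). The gene holds 7 snoRNA genes on its own strand, and reads of host and snoRNA may have been counted for either. The mRNAs of its partners, which were not targeted, were lower as well. Gar1, at 302 and 376 CPM against 132 and 108, changed by -1.50 (standard error 0.17), and NHP2, at 464 and 527 CPM against 234 and 181, by -1.26 (standard error 0.17). Nop10 was not called, at 7.79 and 15.8 CPM in the control and 20.0 and 26.6 in the depletion (log2 fold change 0.99, adjusted p = 0.0125). It passed the call as higher when control replicate 2 was left out, at 1.56, when RNAi replicate 1 was left out, when libraries were scaled by total counts or with the replicate number as a block. Core proteins of the C/D snoRNP, which methylates ribosomal RNA, moved with their H/ACA counterparts. The methyltransferase Fib changed by -1.92 (standard error 0.22), nop5 by -1.77 and Nop56 by -1.51. Counting the targeted Nop60B, 6 of the 7 snoRNP core mRNAs were lower, beside 14.1% of all genes tested. The list's median was -1.51.

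Over all genes, 8978 passed the expression filter and were tested. A gene was called when it differed at least 2-fold with a Benjamini-Hochberg adjusted p under 0.05 in edgeR's quasi-likelihood test. In Nop60B RNAi 1268 genes (14.1%) were lower and 2106 (23.5%) were higher, and 5604 were not called. The median log2 fold change of all genes tested was 0.01. Both RNAi libraries lay above both controls in 3715 of the 8978 genes and below both in 3610, and the groups overlapped in 1653. Separate groups in a gene named for its call are thus no added support. Falls were mostly moderate, with 381 genes at least 4-fold lower and 117 at least 16-fold lower, whereas 1488 genes were at least 4-fold higher and 356 at least 16-fold higher. The genes called lower held 25.1% and 25.3% of control counts and 12.0% and 10.3% of RNAi counts. The genes called higher held 5.37% and 5.32% of control counts and 25.6% and 27.9% of RNAi counts. When the spread between replicates was instead estimated over all 12 libraries of the experiment, 123 genes were lower and 294 higher, and all of these were among the genes called on the 4 libraries. These p-values rest on 2 libraries per group. The fit draws each gene's spread toward that of all genes, with 11.4 prior degrees of freedom, so they do not measure the gene's own spread alone. An exact two-sided permutation test of 2 against 2 cannot go below 0.333.

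**Figure D1:**
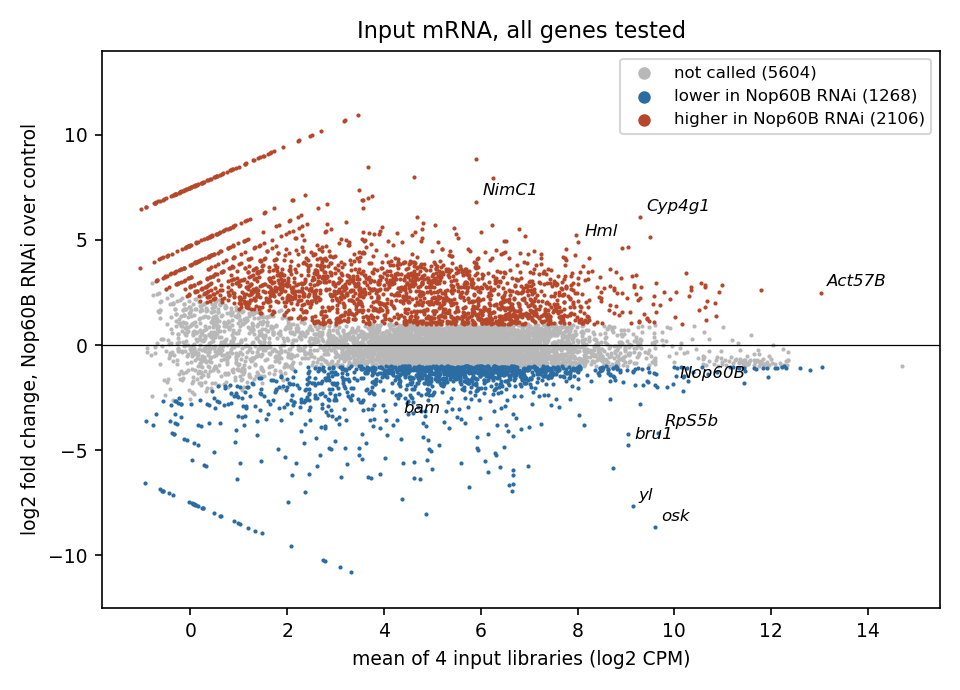
Log2 fold change of Nop60B RNAi over control (vertical axis) against the mean of the 4 input libraries in log2 CPM (horizontal axis) for 8978 genes, each point 1 gene, with the 1268 genes called lower in blue, the 2106 called higher in red and the rest in grey. The most reduced abundant mRNAs are osk and yl, and the diagonal lines of points at low levels are genes with no or few counts in 1 group, whose fitted fold changes are not measured values.

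Levels of mRNAs that define other tissues are given next, because they moved with the groups. Of the 26 muscle markers tested, 24 were higher in Nop60B RNAi and 0 lower, and their summed level was 7224 and 8291 CPM in the control and 46500 and 43530 CPM in the depletion. Of 20 hemocyte (blood cell) markers 18 were higher, with sums of 1417 and 1604 against 5948 and 5321 CPM, and all 7 trachea markers were higher, with sums of 79.0 and 84.2 against 717 and 740 CPM. Of the trachea markers, obst-A was not called with DESeq2 or when control replicate 1, control replicate 2 or RNAi replicate 1 was left out. The median log2 fold change was 2.49 for muscle, 3.53 for hemocyte and 2.80 for trachea markers. Fat body markers were called higher in 6 of 15, with sums of 355 and 328 against 636 and 759 CPM. Neuron and glia markers were called higher in 4 of 9, with sums of 224 and 216 against 331.7 and 361.6 CPM. Over all genes tested, 23.5% were higher. Gut markers stayed near zero, with 6 of the 13 listed genes at 0 in all 4 libraries and 2 tested, of which 0 were called. The part of these tissues in the results below was not tested.

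The genes with the largest falls included osk, yl, swa, pgc and fs(1)N. Oskar (osk), whose mRNA is localized to the posterior of the oocyte and whose protein assembles the germ plasm, was at 1748 and 1345 CPM in the control and 4.43 and 3.13 CPM in Nop60B RNAi, a log2 fold change of -8.68 (standard error 0.29, adjusted p = 2.91e-10). Its gene (FBgn0003015, chromosome 3R, 8935126 to 8938395) overlaps an annotated antisense RNA. Yolkless (yl), the receptor that takes yolk protein up into the oocyte, was at 1154 and 1089 CPM against 7.40 and 3.74 CPM (log2 fold change -7.66, standard error 0.30). Both mRNAs were thus among the abundant mRNAs of the control and nearly absent after depletion. Swallow (swa), required to localize bicoid mRNA, changed by -6.74, and pgc, which represses transcription in germ cell precursors and overlaps T3dh on the other strand, by -6.66. The eggshell gene fs(1)N changed by -6.02. The other genes among the 15 with the largest falls at 10 CPM or more were CG31262, lncRNA:CR32773, CG11674, ZnT35C, CG44005, CG4408, Cyp6a19, CG18586, yin and CG15822, with log2 fold changes from -8.05 to -6.12.

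Of 29 tested genes for the oocyte axes and for maternal mRNA control, 21 were lower and 0 higher, with a median of -1.73. Wispy (wisp), the cytoplasmic poly(A) polymerase of the late oocyte, was at 170 and 136 CPM in the control and 5.59 and 3.27 CPM in the depletion. The maternal tubulin alphaTub67C was at 278 and 220 CPM against 5.88 and 3.27 CPM. Exuperantia (exu), which acts in bicoid mRNA localization, was at 124 and 115.4 CPM against 2.105 and 5.31 CPM. These 3 genes were picked among called members, so the distance between their groups is no added support. Smaug (smg), a repressor of maternal mRNA, changed by -2.85 and the germline innexin zpg by -2.99. The abundant translational repressors me31B and tral changed by -1.88 and -1.73. Not every oocyte gene moved. Gurken (grk), the ligand that signals from the oocyte to follicle cells, was at 46.8 and 45.0 CPM against 39.2 and 47.4 CPM, with overlapping groups, and staufen (stau), at 79.7 and 89.4 CPM against 123 and 172 CPM, was not called at 0.80. It was called higher when RNAi replicate 1 was left out. Yolk and eggshell genes were mixed, with 7 of 16 lower and 3 higher, beside 14.1% lower and 23.5% higher of all genes tested. Their median of -0.93 was -1.56 without RNAi replicate 1, -0.475 without control replicate 2 and -0.52 without RNAi replicate 2. Vm26Aa and Vm26Ab, proteins of the vitelline membrane, changed by -2.38 and -3.12. The 3 higher genes were the chorion genes Cp15, Cp19 and Cp38, all at 7.26 CPM or less, and 1 was called higher when control replicate 1, control replicate 2 or RNAi replicate 1 was left out.

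Factors that drive stem cell daughters into cysts and cysts into oocytes were split. Their list also holds genes without that role, such as fs(1)Ya. Of 22 tested, 7 were lower and 2 higher, with a median of -0.39, beside 14.1% lower and 23.5% higher of all genes tested. Bruno 1 (bru1), a translational repressor of differentiating cysts, was at 975 and 1061 CPM in the control and 38.5 and 37.2 CPM in Nop60B RNAi (log2 fold change -4.75, standard error 0.19, adjusted p = 6.52e-10). Its gene (chromosome 2L, 12175004 to 12313438) overlaps atilla and CG31759, the latter on the same strand. Bag of marbles (bam), the factor that starts cyst differentiation, was at 37.0 and 34.4 CPM against 2.105 and 3.95 CPM (log2 fold change -3.55, standard error 0.30), and overlaps CG11854 on the other strand. The RNA-binding protein orb changed by -3.77, otu, needed for cyst division, by -4.36, the germline transcription factor ovo by -2.80, stil by -3.14 and fs(1)Ya by -5.52. Several other genes of the list were not called. The bam partners bgcn and tut were at 6.97 and 4.58 against 9.65 and 3.54 CPM, with overlapping groups, and at 10.7 and 8.40 against 11.9 and 12.8 CPM. Rbfox1, an RNA-binding protein of cysts, was at 76.2 and 77.1 CPM in the control and 101 and 138 CPM in the depletion and was not called (log2 fold change 0.64, adjusted p = 0.00513). Mei-P26 at -0.78, Sxl at -0.02 and egl at -0.41 were not called either. The 2 higher genes encode membrane skeleton proteins that are also part of the fusome. These were alpha-Spec, at 145 and 140.4 CPM against 369 and 363 CPM (log2 fold change 1.36), and hts, at 1.201, which was not called without RNAi replicate 2.

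**Figure D2:**
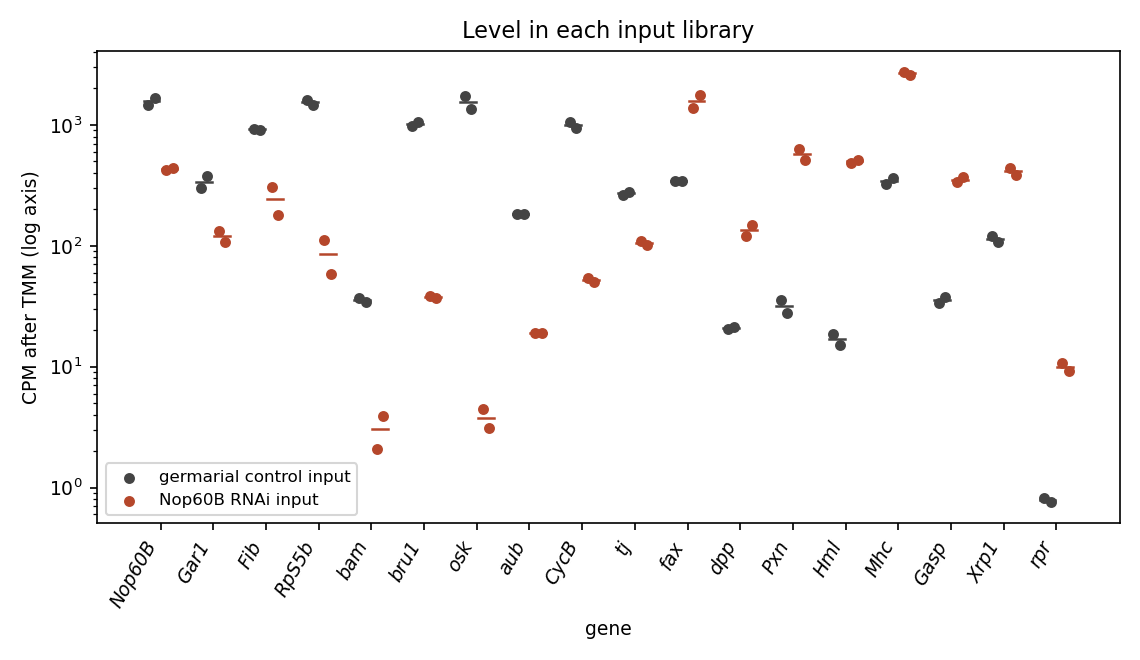
CPM after TMM in each of the 4 input libraries (vertical log axis) for 18 genes, with 2 control libraries in dark grey and 2 Nop60B RNAi libraries in red, and a bar at each group mean. Replicates lie close together beside the distance between groups for osk, bru1, CycB and Hml, and the tissue markers Hml, Mhc and Gasp lie higher in both RNAi libraries.

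The stretch upstream of 4 of the lower genes is shown because it holds the DNA replication-related element (DRE, TATCGATA), a core promoter motif bound by Dref and common at housekeeping genes. They were taken from protein-coding genes of at least 10 CPM with large falls that hold the motif in the 100 bases before the RefSeq start (dm6). The choice did not cover every chromosome, so other lower genes with the motif may have larger falls. Each stretch is printed 5′ to 3′ on the gene's strand with the motif in capitals. The thioredoxin gene dhd (X, 5312071 to 5312170) changed by -5.86, gammaTub37C, the maternal gamma-tubulin (2L, 19185727 to 19185826), by -5.35, bru1 (2L, 12174904 to 12175003) by -4.75 and bam (3R, 25245110 to 25245209) by -3.55.
dhd: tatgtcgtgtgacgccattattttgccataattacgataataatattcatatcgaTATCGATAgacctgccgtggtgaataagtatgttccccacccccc
gammaTub37C: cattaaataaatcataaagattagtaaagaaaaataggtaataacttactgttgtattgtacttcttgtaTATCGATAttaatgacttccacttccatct
bru1: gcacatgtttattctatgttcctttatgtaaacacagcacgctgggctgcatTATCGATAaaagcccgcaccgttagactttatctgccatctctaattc
bam: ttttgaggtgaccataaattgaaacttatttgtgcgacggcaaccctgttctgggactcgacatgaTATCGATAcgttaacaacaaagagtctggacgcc

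Across all promoters, from 250 bases before to 50 after the start and on either strand, TATCGATA was found at 199 of 1234 lower genes (16.1%), 85 of 2064 higher genes (4.12%) and 1174 of all 8777 tested genes with a start (13.4%). The core of Ohler motif 1, GGTCACAC, stood in 10.9% of lower, 3.83% of higher and 11.4% of all promoters. The TATA box letters TATAAA were found in 44.0%, 39.3% and 44.3%. The 2 motifs of housekeeping promoters were thus less frequent at the higher genes than over all genes, and the share at the lower genes lay nearer to that of all genes. A match says only that the letters are in the window.

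Genes of meiosis, of which 30 were tested, fell in 17 cases and rose in 0, with a median of -1.43. The shares over all genes tested were 14.1% lower and 23.5% higher. Matrimony (mtrm), an inhibitor of polo in the oocyte, was at 103 and 87.1 CPM in the control and 2.47 and 1.36 CPM in the depletion (log2 fold change -5.63, standard error 0.26), and its reads may be shared with Exo70, which it overlaps. The gnu, plu and png proteins form the kinase complex that starts embryonic cycles, and all 3 mRNAs fell. Giant nuclei (gnu) was at 173 and 170 CPM against 7.40 and 4.70 CPM, and plutonium (plu), at 12.6 and 15.01 CPM in the control, had no counts in either RNAi library, at least 65.5-fold lower with 3 counts per library as the floor. Png changed by -2.38. The synaptonemal complex gene c(3)G was at 179 and 170 CPM against 48.8 and 47.3 CPM (log2 fold change -1.86, standard error 0.15), and c(2)M changed by -3.11. Cona, another part of that complex, was at 26.8 and 17.6 CPM against 16.5 and 12.8 CPM and was not called (log2 fold change -0.60, adjusted p = 0.0614). The recombination genes okr, spn-A, mei-9 and mei-W68 were not called either, at -0.42, -0.22, -0.48 and -0.91.

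The piRNA pathway, which silences transposons in the gonad, was lower in 19 of 28 genes and higher in 0, with a median of -1.35. Among all genes tested 14.1% were lower and 23.5% higher. Aubergine (aub), a germline PIWI protein, was at 182 and 184 CPM against 19.2 and 19.1 CPM (log2 fold change -3.26, standard error 0.16), and its partner AGO3 was at 128 and 126 CPM against 21.6 and 29.1 CPM. Rhino (rhi), a chromatin protein of germline piRNA clusters, changed by -3.23 and tej by -3.15. These 4 genes were picked among called members, so groups far apart are no added support. Piwi, which is made in both germline and somatic cells, changed by -1.69. Tudor (tud) was at 140.0 and 128 CPM against 200.2 and 267 CPM and was not called at 0.80, and papi and Panx stayed at 0.09 and -0.12.

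Most cell cycle genes examined fell, beside 14.1% of all genes tested. Of 35 DNA replication genes 23 were lower and 1 higher (median -1.22), and of 41 mitotic genes 25 were lower and 0 higher (median -1.12). CycB had the largest fall of the mitotic list. CycB was at 1047 and 949 CPM in the control and 54.5 and 50.4 CPM in Nop60B RNAi (log2 fold change -4.25, standard error 0.19), and CycA was at 508 and 449.99 CPM against 43.6 and 50.5 CPM (-3.35). Greatwall (gwl), a kinase that opposes PP2A in mitosis and meiosis, changed by -4.07. The phosphatase stg, which activates Cdk1, changed by -2.03, and the mitotic kinase polo by -1.49. Replicative helicase subunits fell less. Mcm2 was at 128 and 123 CPM against 38.2 and 30.8 CPM (-1.86), with Mcm5, Mcm6 and Mcm7 at -1.62, -1.33 and -1.50. PCNA2 was the 1 replication gene called higher, at 2.13 and 0.89 CPM against 9.72 and 7.35 CPM, whereas PCNA changed by -1.70. The checkpoint gene Bub1 at 0.27 and the transcription factor E2f1 at -0.02 were not called.

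Ribosome biogenesis factors fell moderately. Of 32 tested, 16 were lower and 0 higher, with a median of -1 and a lowest value of -1.55. The nucleolar protein Nopp140 was at 600.5 and 587.4 CPM in the control and 206 and 246 CPM in the depletion (log2 fold change -1.39, standard error 0.16). The RNA helicase ais changed by -1.55, Surf6 by -1.48 and wcd by -1.47, and the largest RNA polymerase I subunit, Polr1A, at -0.92, was not called. With libraries scaled by total counts only, 9 of the 32 were called lower. Of 82 tested mRNAs of cytoplasmic ribosomal proteins, 18 were lower and 2 higher, beside 14.1% lower and 23.5% higher of all genes. Most of the 82 shifted by less than 2-fold, with a median of -0.83. Their summed level was 299800 and 315200 CPM in the control and 199200 and 144000 CPM in Nop60B RNAi, so the 2 RNAi libraries differed from each other. Leaving out RNAi replicate 1 gave 56 lower genes, leaving out RNAi replicate 2 gave 7, and scaling by total counts gave 4. RpS5b, a paralog used in the germline, stood apart from the rest. It was at 1592 and 1471 CPM against 112 and 58.4 CPM (log2 fold change -4.17, standard error 0.28, adjusted p = 3.13e-08). The 2 higher genes were the paralogs RpL22-like, at 0.47 and 0.89 CPM against 30.6 and 23.4 CPM (5.30, standard error 0.39), and RpS10a, at 4.96 and 4.20 CPM against 15.8 and 11.6 CPM. RpS19b, another paralog, was at 10.2 and 15.4 CPM against 23.9 and 24.8 CPM and was not called (log2 fold change 0.94), but was called higher without control replicate 2 or with libraries scaled by total counts. The elongation factor eEF2, one of the 5 most abundant mRNAs of both groups, changed by -1.06 and was not called without RNAi replicate 2 or with libraries scaled by total counts.

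**Figure D3:**
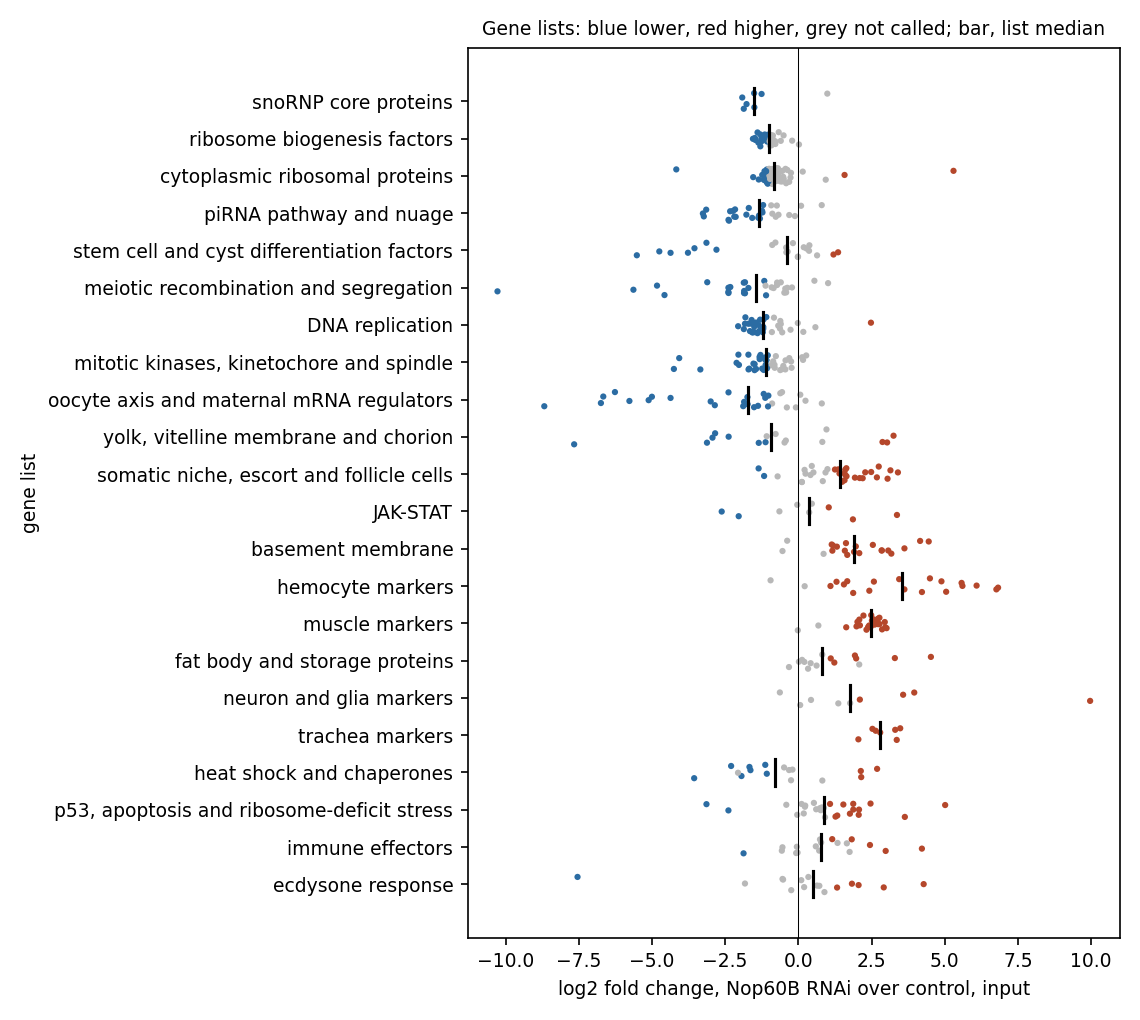
Log2 fold change of Nop60B RNAi over control (horizontal axis) for every tested member of 22 gene lists (vertical axis), with genes called lower in blue, called higher in red and not called in grey, and a black bar at each list's median. List medians run from -1.73 for oocyte axis genes to 3.53 for hemocyte markers.

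Genes of the ovarian soma were mostly higher. Of 33 niche, escort and follicle cell genes 20 rose and 2 fell, beside 23.5% higher and 14.1% lower of all genes tested. Their median was 1.44, and summed levels were 2261 and 2212 CPM in the control and 4930 and 5716 CPM in Nop60B RNAi. Failed axon connections (fax), expressed in escort cells, was at 342 and 344 CPM against 1373 and 1774 CPM (log2 fold change 2.20, standard error 0.20). The BMP ligand dpp, which maintains germline stem cells, was at 20.4 and 21.2 CPM against 119 and 148 CPM (2.68, standard error 0.18). Glutamine synthetase Gs2 was at 22.4 and 28.8 CPM against 241 and 299 CPM (3.40). These genes were picked among called members, so separate groups are no added support. The transcription factors zfh1 and bab2 changed by 3.05 and 2.75, Fas3, an adhesion protein of young follicle cells, by 2.096, and the Wnt ligands Wnt2, Wnt4 and Wnt6 by 1.60, 1.93 and 1.60. The Hedgehog target ptc changed by 1.65, and hh, at 1.44, was not called without control replicate 1. Traffic jam (tj), a transcription factor of escort and follicle cells, was at 263 and 279 CPM against 110 and 102 CPM (log2 fold change -1.36, standard error 0.15), and the receptor Notch (N) changed by -1.17, so the list did not move as one. Follicle cell genes eya, shg and Egfr were not called at 0.12, 0.21 and 0.41. Muscle and hemocyte marker sums were higher in the same libraries, and zfh1 is also expressed in muscle and blood cell lineages. The part of those tissues here was not tested.

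JAK-STAT, a cytokine pathway of the niche, was mixed over 9 tested genes. The ligand upd1 was at 6.61 and 8.02 CPM against 0.58 and 1.77 CPM (log2 fold change -2.62), and upd3 at -2.04 lost its call when either control replicate or RNAi replicate 2 was left out, with DESeq2, with no filter on low counts, with libraries scaled by total counts and with the replicate number as a block. The kinase hop, at 58.6 and 59.4 CPM against 209 and 221 CPM, changed by 1.86, the inhibitory receptor et by 3.37 and the feedback inhibitor Socs36E by 1.04, the last not called without control replicate 2 or RNAi replicate 2. The receptor dome and Stat92E were not called, at 0.37 and 0.46.

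Basement membrane genes rose together, with 18 of 21 higher, 0 lower and a median of 1.90, beside 23.5% higher of all genes tested. The collagen IV chains Col4a1 and vkg were at 621 and 772 against 2453 and 1984 CPM and at 564 and 614 against 1670.2 and 1264 CPM, with log2 fold changes of 1.67 and 1.32. Papilin (Ppn) changed by 2.85, the peroxidase Pxn by 4.16, at 35.9 and 27.9 CPM against 630.4 and 510.3 CPM, and SPARC by 1.90. The matrix metalloproteases Mmp1 and Mmp2 changed by 3.18 and 2.84, and the integrin subunits if, mew and mys by 2.55, 2.08 and 1.63. LanA, at 0.86, and the collagen-modifying enzyme Plod, at -0.38, were not called, while LanB1 and LanB2 rose by 1.16 and 1.59. Many of these genes are also made by hemocytes and fat body. In the same libraries 18 of 20 hemocyte markers but 6 of 15 fat body markers were called higher. The part of these tissues was not tested.

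Among the hemocyte markers, Hml (hemolectin, FBgn0029167, chromosome 3L, 13846054 to 13860001) was at 18.7 and 15.01 CPM in the control and 483 and 516 CPM in the depletion (log2 fold change 4.89, standard error 0.19, adjusted p = 6.03e-10). The phagocytosis receptor NimC1 was at 0.71 and 1.3995 CPM against 124 and 114 CPM (6.82), and eater changed by 4.49. PPO2, the prophenoloxidase of crystal cells, was at 0.35 and 1.15 CPM against 62.0 and 39.7 CPM (6.09), and atilla, a lamellocyte marker that overlaps bru1, changed by 2.58. Of the higher genes named here, only PPO2 stood for crystal cells and only atilla for lamellocytes. The marker drpr, at 0.22, was not called, nor was PPO3, which lay in the other direction at -0.95. The muscle genes were among the most abundant of the depleted ovaries. Act57B, a muscle actin that holds 1 snoRNA gene, was at 2300 and 2730 CPM in the control and 14898 and 13348 CPM in the depletion (log2 fold change 2.49, standard error 0.28). Myosin light chain Mlc2 was at 904 and 1071 against 6213 and 5975 CPM (2.63), and the heavy chain Mhc at 323 and 364 against 2723 and 2593 CPM (2.95). The 24 called muscle genes lay between 1.64 and 3.01, and Act88F, an actin of flight muscle, was not called at -0.02. In trachea, the chitin-binding protein Gasp was at 33.5 and 37.5 CPM against 337 and 367 CPM (3.31), and the transcription factor trh changed by 3.36. The neuronal gene elav changed by 2.101 and the glutamate transporter VGlut, with no counts in the control, was at 12.9 and 9.39 CPM in the depletion, at least 30.3-fold higher. Storage proteins of the fat body, Lsp1gamma, Lsp2 and Fbp1, lay at a few CPM or less in all 4 libraries, and the lipid carrier apolpp rose by 1.93.

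Stress genes were higher in part. Of 27 genes of the p53, apoptosis and ribosome-deficit lists, 12 were higher and 2 lower, with a median of 0.87. Over all genes tested, 23.5% were higher and 14.1% lower. The pro-apoptotic genes rpr, at 0.83 and 0.76 CPM against 10.8 and 9.26 CPM, and skl changed by 3.64 (standard error 0.50) and 5.01, whereas hid, at 0.91, was called higher only without control replicate 1, without RNAi replicate 1 or with libraries scaled by total counts. Xrp1, a transcription factor induced by ribosomal protein loss, was at 119 and 106 CPM against 442 and 387 CPM (log2 fold change 1.88, standard error 0.16), and its partner Irbp18 changed by 1.33. Both partners were above the control in both libraries. The translational repressor Thor (4E-BP) was at 65.6 and 85.2 CPM against 430.3 and 403 CPM (2.47), Sesn changed by 1.88 and the initiator caspase Dronc by 1.76. The effector caspase Dcp-1 and the p53 target Corp fell by 2.39 and 3.14 on the log2 scale. The p53 gene itself, at -0.41, was not called, nor was the ATF4 gene crc, at 0.87. Heat shock genes went both ways, with 7 of 16 lower and 3 higher, beside 14.1% lower and 23.5% higher of all genes tested. Hsp23 and stv changed by 2.69 and 2.13, and Hsp83 by -1.13. The heat shock genes Hsp26, Hsp27, Hsp67Bc and Hsp70Aa were higher in control replicate 2 than in control replicate 1, Hsp70Aa at 41.0 against 7.56 CPM, and Hsp70Bc and Hsp67Bc lost their calls without control replicate 2. Copies of Hsp70 differ little in sequence, and their counts cannot be told apart with certainty.

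Immune effectors were higher in 5 of 18 and lower in 1, beside 23.5% higher and 14.1% lower of all genes tested, and 3 were higher without control replicate 1. The NF-kappaB factor Dif was at 11.3 and 12.0 CPM against 75.9 and 108 CPM (log2 fold change 2.98), while Rel, at 0.71, was not called. Ecdysone response genes were higher in 5 of 16 and lower in 1, again near the shares over all genes, and 3 were higher without control replicate 2. The early gene Eip74EF was at 15.7 and 15.8 CPM against 103 and 135 CPM (log2 fold change 2.92, standard error 0.19), and Eip93F changed by 1.32. The ecdysone biosynthesis enzyme dib had no counts in the depletion, at 2.60 and 1.53 CPM in the control, at least 9.78-fold lower, and was not tested without control replicate 1. The receptor genes EcR and usp were not called, at -0.24 and 0.10.

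Genes that transgenes can carry were examined apart. Dcr-2 was at 1001 and 1196 CPM in the control and 155 and 161 CPM in Nop60B RNAi (log2 fold change -2.80, standard error 0.18), and counts of the endogenous gene and of UAS-Dcr2 cannot be told apart. The eye color gene w, at 260.1 and 254 CPM against 73.2 and 68.3 CPM, changed by -1.86. Vermilion (v) was at or under 0.13 CPM in the control and at 7.11 and 9.26 CPM in the depletion, at least 22.2-fold higher, and y, called higher at 2.03 and 1.09 CPM, lost the call when control replicate 1, control replicate 2 or RNAi replicate 1 was left out, with DESeq2, with no filter on low counts and with the replicate number as a block. Both are marker genes in common use on fly transgenes, and whether the counted v and y mRNAs came from a transgene was not tested.

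The largest rises at 10 CPM or more were of genes nearly silent in the control. Of the 15, 8 had no control library above 3 counts, so their changes are bounds. The gene jtb was at 0.35 and 0 CPM in the control and 48.1 and 49.5 CPM in the depletion, at least 133-fold higher. CG9400, antisense to Muc12Ea, was at least 60.1-fold higher, the pseudogene CR45458 68.9-fold, CG8563 60.8-fold, CG12998 72.6-fold, CG43843 68.3-fold, CG18609 63.9-fold and CG30371 63.3-fold. These 8 genes were above 16 CPM in both RNAi libraries. They passed the minimum of 10 CPM through those libraries alone, so a high level there follows from the choice. NimC1 and PPO2, given above, belong to the same 15. Cyp4g1, an enzyme of cuticular hydrocarbon synthesis in oenocytes, was at 32.5 and 3.82 CPM in the control and 1219 and 1258 CPM in the depletion (log2 fold change 6.08, standard error 0.59). The control replicates of Cyp4g1 thus differed, yet both lay far below either RNAi library. CG31862, sordd2 and CG14569 changed by 7.92, 6.53 and 5.81. AstA-R1, the receptor of the peptide allatostatin A, rested on 1 library, at 236 CPM in RNAi replicate 1 and 3.47 CPM in RNAi replicate 2 beside 0.47 and 0 CPM in the control.

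The polysome libraries of the same genotypes, made from the same lysates, gave a second reading of these mRNAs that is not independent of the input. Tested alone in the same way, 919 of 8654 genes (10.6%) were lower and 1298 (15%) higher in Nop60B RNAi polysomes. Of the 1268 genes lower in the input, 1223 were tested in polysomes, where 1195 had the same sign and 591 (48.3%) were called lower. Of the 2106 higher in the input, 1840 were tested, 1783 had the same sign and 1090 (59.2%) were called higher. Over all 8451 genes tested in both fractions, 7064 had the same sign. The median log2 fold changes were -1.45 in input and -1.47 in polysomes for the lower genes, and 2.53 and 2.37 for the higher. Calls opposite in the 2 fractions were made for 3 genes, named here after their values were seen, which were MtnB and l(3)72Dr, higher in the input, and the pseudogene 28SrRNA-Psi:CR41609, lower in it. In polysomes, osk was at 606 and 931 CPM in the control and 3.84 and 2.19 CPM in the depletion, RpS5b at 994 and 1266 against 106 and 76.3 CPM, and Hml at 26.4 and 16.1 against 1359 and 992 CPM. The polysome log2 fold change of bam was -3.74 and was not called (adjusted p = 0.0973), and its RNAi replicates were at 0.07 and 4.76 CPM.

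Called genes were unevenly spread over the genome. On chromosome 4, a small and largely heterochromatic chromosome, 31 of 76 tested genes (40.8%) were higher and 1 lower, CG11076, which was named after its value was seen, and the median log2 fold change was 0.76. On the other arms 20.2% to 25.2% of genes were higher and 13.0% to 16.0% lower, with the lowest share of higher genes on the X. Higher genes were also longer. Their median span was 3892.5 bases against 2771 bases over all tested genes, and 17.8% spanned over 20 kb against 9.03% of all and 5.43% of lower genes. By annotated class, 23 of 65 snoRNA genes (35.4%) were lower and 5 higher, 11 of 36 pseudogenes were lower and 6 higher, and 9 of 10 snRNA genes were higher. Among all genes tested 14.1% were lower and 23.5% higher. Protein-coding genes lay near these shares, at 13.7% and 23.5%, and 204 other noncoding RNA genes (class ncRNA) were at 20.6% and 27.5%. The snRNA genes have near-identical copies. These small RNAs carry no poly(A) tail as mature products, and the libraries were poly(A)-selected, so their counts may come from precursors or host transcripts. The snRNA levels were low, with U5:34A at 0.24 and 1.3995 CPM in the control and 11.2 and 11.7 CPM in the depletion (snRNA:U5:34A, log2 fold change 3.82).

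**Figure D4:**
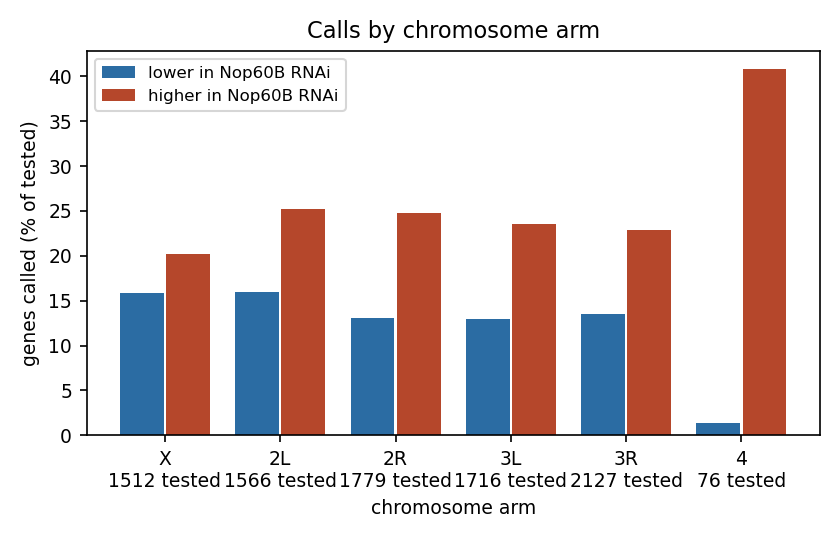
Share of tested genes called lower (blue) and higher (red) in Nop60B RNAi on each chromosome arm, in percent, with the number of genes tested under each arm. Chromosome 4 has 76 tested genes, of which 40.8% were higher and 1.32% lower.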

How the data were processed

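The authors aligned single-end 75-bp reads of poly(A)-selected RNA to dm6 with HISAT2 2.1.0 and deposited raw counts per FlyBase gene from featureCounts 1.4.6, per the submitters' processing notes. Strand setting and the treatment of reads with several alignments are not given in the sources used here. The 4 input libraries were fitted alone in R 4.3.3 with edgeR 4.0.16 (filterByExpr, TMM scaling, quasi-likelihood test with group only). Folds against groups with no library above 3 counts are lower bounds at 3 counts per library and cover counting error only, since reads carried no molecular identifiers. Nothing says whether replicates came from separate crosses, so p-values may measure technical spread. Counts were simulated for 8978 genes, with 200 genes of at least 10 CPM changed, as many down as up. Of 4-fold falls and rises 100.0% and 99.6% were called, with 3 unchanged genes called per simulation. Of 2-fold ones 50.0% and 56.0% were called, a share set largely by the 2-fold minimum itself. Far more genes were called in the real libraries, and unevenly, so the simulation does not cover scaling error there. Members and gene lists were chosen with earlier results of these data known. Named genes are the 15 largest falls and 15 largest rises at 10 CPM or more, called list members by level with those that define a list, genes the paper names in connection with the depletion, and the 5 most abundant per group. Gene names and positions came from the reference annotation of release 6, and sequences from RefSeq (dm6). DESeq2 1.42.0, other scalings and filters, a replicate block and each library left out were alternatives.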

Additional observations from a re-analysis of the deposited data

How the results depend on the processing

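Calls in the input comparison kept their direction throughout, with 0 genes called in opposite directions in any alternative. Scaling by RLE, upper quartile or total counts, DESeq2, no filter or a stricter one, and leaving out the 20 most abundant genes gave 909 to 1307 lower and 2014 to 2341 higher genes. Total counts alone, the setting with 909 and 2341, raised the median of all genes from 0.01 to 0.19 and the higher share of calls from 62.4% to 72%. With the spread taken over all 12 libraries, 123 genes were lower and 294 higher, and 637 and 1157 at an unadjusted p under 0.05. Of the named and listed genes called on the 4 libraries, 261 lost their call in that fit and 71 kept it, against 7 lost and 325 kept with DESeq2, and 0 changed direction. The cause was not tested. With no fold minimum 2645 genes were lower, and with a 4-fold minimum 381. Leaving out 1 library gave 1210 to 1514 lower and 1861 to 2135 higher genes, and log2 fold changes of Nop60B from -1.97 to -1.79. With the replicate number as a block, 1263 genes were lower and 2033 higher (1233 and 2023 shared), and the Nop60B change was -1.86. Deviations of same-numbered libraries had a correlation of 0.0206. That value cannot tell whether same-numbered libraries were handled together, and the labels give only the number. Of the single values, the median of the 2 gut markers ranged from -0.0811 (without RNAi replicate 1) to 3.55 (without control replicate 2) against 0.585.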

Other observations

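Groups defined by gene symbol, chosen after their values were seen, extended the description of the input libraries. Of 70 mitochondrial ribosomal protein genes 30 were lower in Nop60B RNAi and 0 higher, with a median log2 fold change of -0.93, beside -0.83 for the cytoplasmic set and 0.01 for all genes tested. Nucleoporins, the subunits of the nuclear pore, were lower in 6 of 21 and higher in 0 (median -0.87). Aminoacyl-tRNA synthetases, which charge tRNAs, lay between -0.98 and -0.21 with 0 of 17 called in either direction by edgeR. Complex I subunits of the respiratory chain were lower in 1 of 32 (median -0.44), and proteasome subunits in 5 of 35, with 1 higher (median -0.60), a share near the 14.1% of all genes tested.

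Cytochrome P450 genes, which oxidize hormones, lipids and toxins, were higher in 35 of 52 and lower in 5, with a median of 2.37. Tetraspanins were higher in 17 of 24 and lower in 2 (median 1.94), and odorant binding proteins were higher in 7 of 11 and lower in 1 (median 3.23), beside 23.5% higher of all genes tested. The Hox genes Antp, Ubx, abd-A and Abd-B, which set segment identity along the body, were all higher. The abdominal gene abd-A was at 41.3 and 38.7 CPM in the control and 396 and 470.2 CPM in the depletion (log2 fold change 3.44, standard error 0.17), and Abd-B was at 3.31 and 3.31 CPM against 34.7 and 48.8 CPM (3.65, standard error 0.27). Antp changed by 3.20 and Ubx, at 7.55 CPM or less, by 4.13. Muscle marker sums were higher in the same libraries, and their part was not tested.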
